A study of Mus musculus with 12 samples.

Results

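The immunoproteasome and peptide loading genes were compared in submandibular salivary gland of mice aged 8 weeks and 50 weeks. The members were Psmb8, Psmb9, Psmb10, Psme1, Psme2, Tap1, Tap2, Tapbp and Erap1, and every array probe whose single annotated gene symbol was one of these 9 names was taken. That gave 15 of the 45281 probes on the array, or 9 of 19057 named genes. Gland RNA was hybridised to 12 Illumina bead arrays, 6 per age, and both ages were of strain C57BL6J with no other treatment in the labels. The sample titles number mice within each age. The sources used here give neither sex nor pooling and do not state outright that the arrays came from different mice. The p-values therefore rest on the spread among these arrays, part of which may be technical. Changes of late growth and changes of ageing cannot be told apart from 8 and 50 weeks alone.

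The proteasome is the barrel-shaped protease that degrades ubiquitin-tagged proteins. Interferon gamma induces 3 alternative catalytic subunits, Psmb8, Psmb9 and Psmb10, which take the places of Psmb5, Psmb6 and Psmb7 in newly built cores and so form the immunoproteasome, and it induces the activator ring of Psme1 and Psme2. The peptides released are pumped into the endoplasmic reticulum by the transporter of Tap1 and Tap2, trimmed there by the aminopeptidase Erap1 and loaded onto MHC class I molecules with the help of tapasin, the product of Tapbp. Lymphocytes, macrophages and dendritic cells carry much immunoproteasome at rest, whereas most epithelia carry mainly the constitutive form until they meet interferon. In bulk gland RNA, a change in the number of such cells and a change in RNA per cell cannot be told apart.

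Psmb9, Tap1, Psmb8 and Tap2 lie next to each other in the MHC region of chromosome 17, where Psmb9 and Tap1 are read in opposite directions from starts 226 bases apart. RefSeq promoter windows of GRCm38.p6, 250 bases before to 50 bases after a listed start of a gene, were found for 8 of the 9 members. Tap2 had none, and there were 9 windows in all. The windows of Psmb9 and Tap1 overlap by 275 bases, so most of this sequence stands before both genes. Shown are the Psmb9 window chr17:34187281-34187580 on the minus strand, the Psmb8 window chr17:34197945-34198244 on the plus strand and the Psme1 window chr14:55578244-55578543 on the plus strand, because Psmb9 and Psmb8 rose at 50 weeks while Psme1 did not pass the test. Capitals mark the motif matches.
Psmb9: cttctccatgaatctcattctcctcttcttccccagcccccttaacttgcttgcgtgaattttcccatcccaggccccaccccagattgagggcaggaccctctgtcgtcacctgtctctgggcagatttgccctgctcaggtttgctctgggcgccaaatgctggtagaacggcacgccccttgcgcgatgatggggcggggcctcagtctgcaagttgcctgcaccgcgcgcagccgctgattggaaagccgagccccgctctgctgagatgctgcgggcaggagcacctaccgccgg
Psmb8: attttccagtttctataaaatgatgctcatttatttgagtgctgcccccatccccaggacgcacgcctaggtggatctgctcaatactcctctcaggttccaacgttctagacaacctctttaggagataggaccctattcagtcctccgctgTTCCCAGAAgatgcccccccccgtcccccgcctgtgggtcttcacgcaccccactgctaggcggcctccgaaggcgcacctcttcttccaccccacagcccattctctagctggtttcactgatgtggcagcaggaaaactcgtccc
Psme1: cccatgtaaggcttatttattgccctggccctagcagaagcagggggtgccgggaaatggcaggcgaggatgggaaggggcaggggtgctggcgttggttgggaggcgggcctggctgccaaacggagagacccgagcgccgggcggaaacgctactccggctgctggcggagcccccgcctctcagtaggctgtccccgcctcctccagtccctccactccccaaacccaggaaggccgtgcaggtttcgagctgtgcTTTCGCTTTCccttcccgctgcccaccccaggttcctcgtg
Both strands were searched for the interferon-stimulated response element, as GAAA, 2 free bases and GAAA, the palindromic STAT site TTCNNNGAA, an NF-kappaB site, as GGG, 2 free bases and TTTCC, and the cyclic AMP response element TGACGTCA. The response element was found in the window of Psme1, as TTTCGCTTTC starting 9 bases after the gene's first base. It was also found in that of Erap1, as TTTCACTTTC starting at position -4. That Erap1 position counts from the start its window is built on, 74639853, not from the gene's first base at 74639573. The element was hence in 2 of 9 member windows against 3.44% of all 32851 windows. The STAT site was found in the Psmb8 window, as TTCCCAGAA starting at position -97, hence in 1 of 9 windows against 8.3% of all. The NF-kappaB site (1.63% of all windows) and the cyclic AMP response element (1.79%) were found in 0 member windows. These are matches of letters within short windows and say nothing of binding.

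The labelled tissue carried its granular duct genes, since Klk1, Egf, Klk1b22 and Klk1b9 together had a mean log2 intensity of 14.74 to 14.97 on all arrays. Of these, Klk1 was lower at 50 weeks, by 0.73 (limma adjusted p = 0.00023). The sublingual gland genes Dcpp1 and Dcpp2 were also bright, with a mean of 14.65 to 14.99, and whether sublingual gland was in the samples was not tested. Mean probe intensity was 207 to 324 per array, and 15318 to 18110 probes were detected. In 2 arrays the profile stood apart. Array 6 of 50 weeks had the lowest mean correlation with its own age, 0.936, all other arrays being at 0.975 or above. Array 2 of 8 weeks had high levels of the skeletal muscle gene Acta1, 9.05 where the other young arrays reached 6.26, and of the adipocyte genes Adipoq and Cidec, with a mean of 9.69 where the others reached 7.49. No 2 arrays were identical. The values without these arrays are given where they move a result.

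Values are log2 intensities after background correction and quantile normalisation, and each difference is the mean of the 50-week arrays minus that of the 8-week arrays, ± the standard error from limma. Probes detected (p-value under 0.05) on 6 or more of 12 arrays were tested. Of the 15 member probes 12 passed, for 8 of 9 genes. All 3 Erap1 probes were detected on 0 of 12 arrays, so no change of this trimming peptidase can be given. Psma1, Psma3 and Psma6, core subunits that every proteasome needs, and the chaperone gene Canx were also never detected, so a silent probe is not a measure of an absent transcript here.

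All 3 inducible catalytic subunits and the transporter gene Tap1 rose from 8 to 50 weeks, while the activator subunits, Tap2 and Tapbp did not pass the test. In counts of probes, 6 of the 12 tested were higher at 50 weeks and 0 were lower (limma, Benjamini-Hochberg adjusted p under 0.05 over all 16254 probes), where 9.64% of all probes were called, 4.95% as higher and 4.69% as lower. These 6 probes belonged to 4 genes. The difference was positive for 11 of 12 probes, and its median was 0.61, beside -0.02 over all probes. On 1 member probe, that of Tap1, every 50-week array lay above every 8-week array, where 2.85% of all probes did so, and 0 member probes had every old array below every young one, where 2.79% of all did. Without 8 weeks array 2 and 50 weeks array 6, the arrays that stood apart, 9 of 12 probes were higher, among 25.6% of all probes called in either direction and 12.6% called higher.

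**Figure D1:**
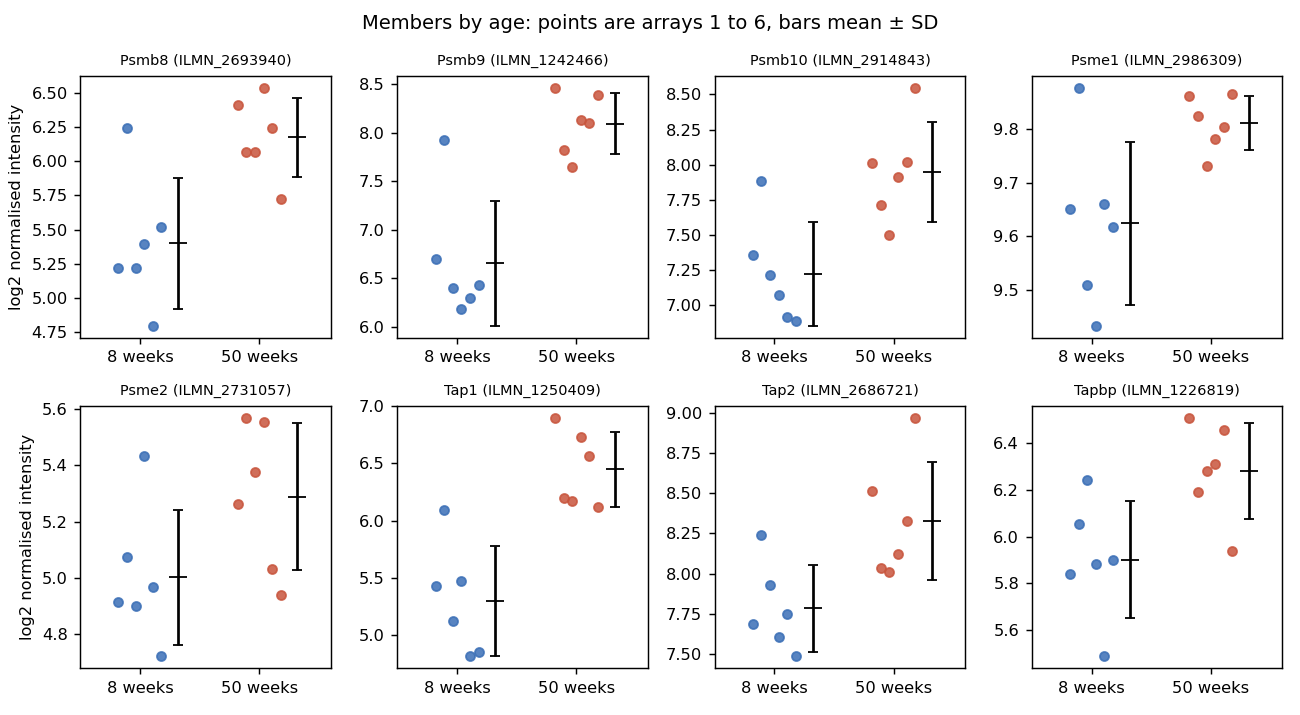
Log2 normalised intensity of the brightest kept probe of each of the 8 measured members at 8 weeks and 50 weeks; points are arrays 1 to 6 from left to right, and the bar beside them is the mean ± SD of 6 arrays. Each panel has its own axis. Tap1 is the 1 panel with no overlap between the ages, and 8 weeks array 2 is the highest 8-week point for Psmb8, Psmb9, Psmb10, Psme1, Tap1 and Tap2.

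Psmb9, the inducible subunit that takes the place of Psmb6, had the largest change among the 8 measured members. At 8 weeks its probe ILMN_1242466 ran from 6.18 to 7.92 with a median of 6.41, and at 50 weeks from 7.65 to 8.46 with a median of 8.12. The ages overlapped through 8 weeks array 2 alone: its 7.92 lay above 50 weeks arrays 2 and 3, and the other 8-week arrays reached at most 6.69. The mean rose from 6.65 ± 0.64 to 8.09 ± 0.32 (SD, n = 6), a 2.72-fold difference (log2 difference 1.44 ± 0.26, limma adjusted p = 0.00349). On the authors' values the difference was 0.87 (limma adjusted p = 0.00147). Leaving out any 1 array gave differences from 1.35 to 1.70, all called.

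Psmb8, the inducible subunit that takes the place of Psmb5, was read by a pair of dim probes. On ILMN_2693940 it rose from 5.40 ± 0.48 to 6.18 ± 0.29 (SD, n = 6), by 0.78 ± 0.20 (limma adjusted p = 0.0288), and on ILMN_1226683 from 5.44 ± 0.38 to 6.11 ± 0.13, by 0.67 ± 0.15 (limma adjusted p = 0.015). On both probes 8 weeks array 2, at 6.24 and 6.17, lay among the 50-week values and the other 5 young arrays lay below all of them. The call of the first probe ended without any 1 of 8 weeks arrays 1, 3, 4 and 5 or 50 weeks arrays 1, 4 and 5, with an adjusted p of at most 0.0666, while the second kept its call without any single array (up to 0.0374). On the authors' values the rise was 0.27 and 0.21 and neither probe passed (limma adjusted p = 0.0544 and 0.0584).

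Psmb10, which takes the place of Psmb7, is the inducible subunit encoded outside the MHC region, on chromosome 8, and its 2 probes gave like differences. Probe ILMN_2914843 ran from 6.89 to 7.88 at 8 weeks (median 7.15) and from 7.50 to 8.55 at 50 weeks (median 7.96). It differed by 0.73 ± 0.19 (limma adjusted p = 0.0264), and ILMN_2757870 by 0.77 ± 0.19 (limma adjusted p = 0.0195), folds of 1.65 and 1.71. The highest value of both probes, 8.55 and 8.27, came from 50 weeks array 6, and 4 of 6 old arrays lay above every young array. Without any 1 of 8 weeks arrays 4, 5 and 6 or 50 weeks arrays 1 and 5 the first probe did not pass, with an adjusted p of at most 0.0606, and the second passed throughout (up to 0.0449). With no detection filter the first did not pass (limma adjusted p = 0.0633). On the authors' values the differences were 0.49 and 0.47, and both passed (limma adjusted p = 0.0082 and 0.00655).

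The activator subunits Psme1 and Psme2, which form a ring that opens the core, did not pass the test on all 12 arrays. Psme1 was bright, at 9.62 ± 0.15 and 9.81 ± 0.05 (SD, n = 6) on ILMN_2986309, a difference of 0.19 with a 95% interval of the fit from 0.01 to 0.36 (limma adjusted p = 0.178). On ILMN_2671204 the difference was 0.17, with an interval from -0.03 to 0.36 (limma adjusted p = 0.282). Without 8 weeks array 2 and 50 weeks array 6 the first probe passed, at 0.23 (limma adjusted p = 0.0337). Psme2 was near background, detected on 2 of 6 arrays at 8 weeks and 5 of 6 at 50 weeks. It differed by 0.29 ± 0.14 (interval -0.01 to 0.58, limma adjusted p = 0.216), and by 0.21 with values under the lowest detected probe of their array raised to it. It passed with array weights, at 0.39 (limma adjusted p = 0.0323), where 26% of all probes were called and 12.6% called higher. A near-identical mouse copy, Psme2b, exists, and whether the probe tells them apart was not tested.

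**Figure D2:**
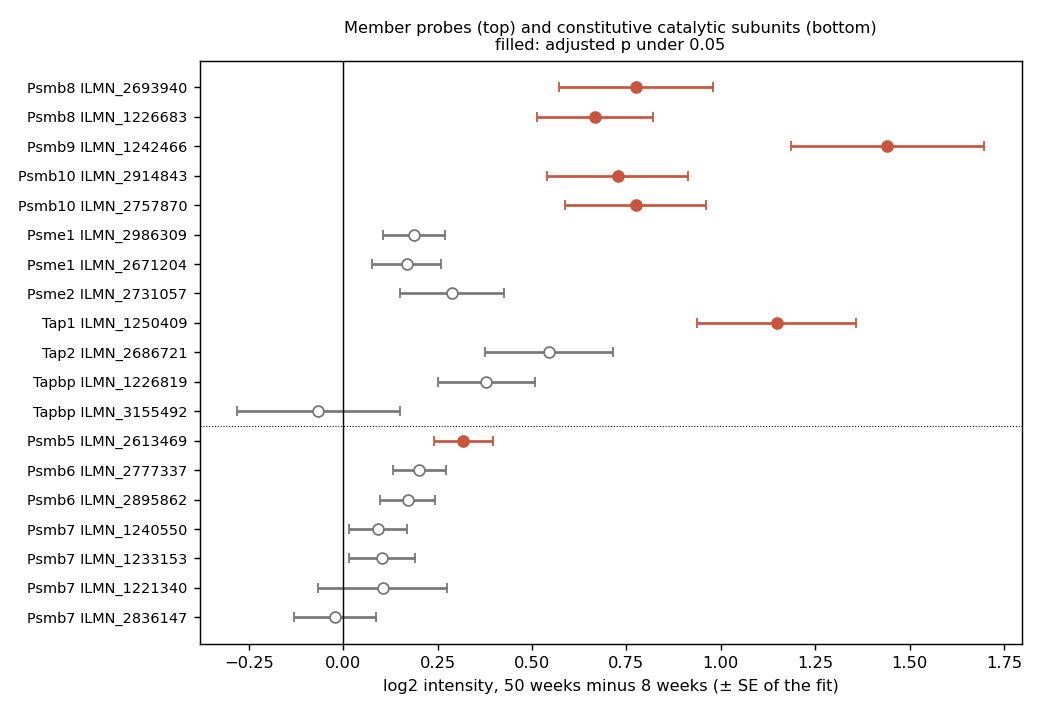
Log2 difference between 50 and 8 weeks (x axis, with the standard error of the limma fit) for the 12 member probes tested, above the dotted line, and for 7 probes of Psmb5, Psmb6 and Psmb7 below it; filled points have an adjusted p under 0.05. Psmb9 at 1.44 and Tap1 at 1.15 lie farthest to the right, and both Psme1 probes lie at or under 0.19.

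Tap1, the first chain of the peptide transporter, rose on every old array. It ran from 4.82 to 6.10 at 8 weeks (median 5.27), where it was detected on 4 of 6 arrays, and from 6.12 to 6.90 at 50 weeks (median 6.38), detected on 6 of 6. The gap between the ages was narrow, since 8 weeks array 2 stood at 6.10 and 50 weeks array 6 at 6.12. The mean rose from 5.30 ± 0.48 to 6.45 ± 0.33 (SD, n = 6), a 2.22-fold difference (log2 difference 1.15 ± 0.21, limma adjusted p = 0.00414), and 2.11-fold when values under the lowest detected probe of their array were raised to it. The call held without any 1 array (adjusted p up to 0.012). With no background correction the difference was 0.84, and on the authors' values 0.41 (limma adjusted p = 0.00911).

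Tap2, the second chain, was brighter and its call depended on the setting. It ran from 7.49 to 8.24 at 8 weeks (median 7.72) and from 8.01 to 8.97 at 50 weeks (median 8.22), with 50 weeks array 6 the highest. The difference of 0.54 ± 0.17 did not pass over all probes (limma adjusted p = 0.0578). It passed when the brightest probe stood for each gene (limma adjusted p = 0.0478), on the authors' values (0.0167), without 8 weeks array 2 (0.64, adjusted p = 0.0252) and without 50 weeks array 6 (0.42, adjusted p = 0.0403), and over all 23 alternatives the adjusted p ran from 0.0069 to 0.128.

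Tapasin, which bridges the transporter to class I molecules, was read by a pair of probes that disagreed. Tapbp probe ILMN_1226819 was at 5.90 ± 0.25 and 6.28 ± 0.20 (SD, n = 6), a difference of 0.38 ± 0.13 (limma adjusted p = 0.0784), which passed without 8 weeks array 3 (0.45, adjusted p = 0.0453) or 50 weeks array 6 (0.45, adjusted p = 0.0159). Probe ILMN_3155492 was at 6.07 ± 0.36 and 6.00 ± 0.48, a difference of -0.07 ± 0.22 (limma adjusted p = 0.892) whose sign turned without 8 weeks array 3 (0.059) and without 50 weeks array 6 (0.094). On that array the second probe stood at 5.21, against 5.90 or more on the other old arrays.

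The question whether the inducible subunits changed unlike the constitutive ones was addressed within arrays. Of the 3 constitutive catalytic genes 1 rose: Psmb5, the subunit with chymotrypsin-like activity, by 0.32 ± 0.08 (limma adjusted p = 0.0208), with 6 of 6 old arrays above every young one. Psmb6 differed by 0.20 ± 0.07 (limma adjusted p = 0.0843) and Psmb7 by 0.09 ± 0.08 (limma adjusted p = 0.501) on their brightest probes. For each array the log2 value of a constitutive subunit was then subtracted from that of its inducible partner, and the ages were compared by a 2-sided exact permutation test over the 924 arrangements of the 12 arrays, with p of at least 0.00216. These p-values were adjusted over 7 pairs, these 3 and 4 pairs of members. The levels of these differences depend on the probes and only their change with age is read.

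Psmb9 minus Psmb6 rose, so the 2 transcripts changed unequally. It ran from -3.91 to -2.05 at 8 weeks and from -2.64 to -1.78 at 50 weeks, with 8 weeks array 2 the highest young value and 4 of 6 old arrays above it. The mean moved from -3.38 ± 0.68 to -2.14 ± 0.33 (SD, n = 6), by 1.24 ± 0.31, a 2.36-fold shift of the ratio (exact permutation p = 0.00649, adjusted p = 0.0303). On the authors' values that difference was 0.64 and passed (adjusted exact permutation p = 0.0303). Psmb10 minus Psmb7 differed by 0.63 ± 0.24 (exact permutation p = 0.026, adjusted p = 0.0606) and Psmb8 minus Psmb5 by 0.46 ± 0.21 (exact permutation p = 0.0498, adjusted p = 0.0697), and neither passed. Leaving out 8 weeks array 2 brought both past the threshold (0.75, adjusted exact permutation p = 0.0189, and 0.62, adjusted exact permutation p = 0.0101), as leaving out 50 weeks array 3 did for Psmb10 minus Psmb7 (0.75, adjusted exact permutation p = 0.0253). The call of Psmb9 minus Psmb6 ended without any 1 of 8 weeks arrays 3, 4 and 6 or 50 weeks arrays 1, 2 and 5, with differences of 1.13 to 1.30 and adjusted exact permutation p up to 0.0682. Psmb8 minus Psmb5 was -0.0076 on the authors' values, which keep the background of dim probes.

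**Figure D3:**
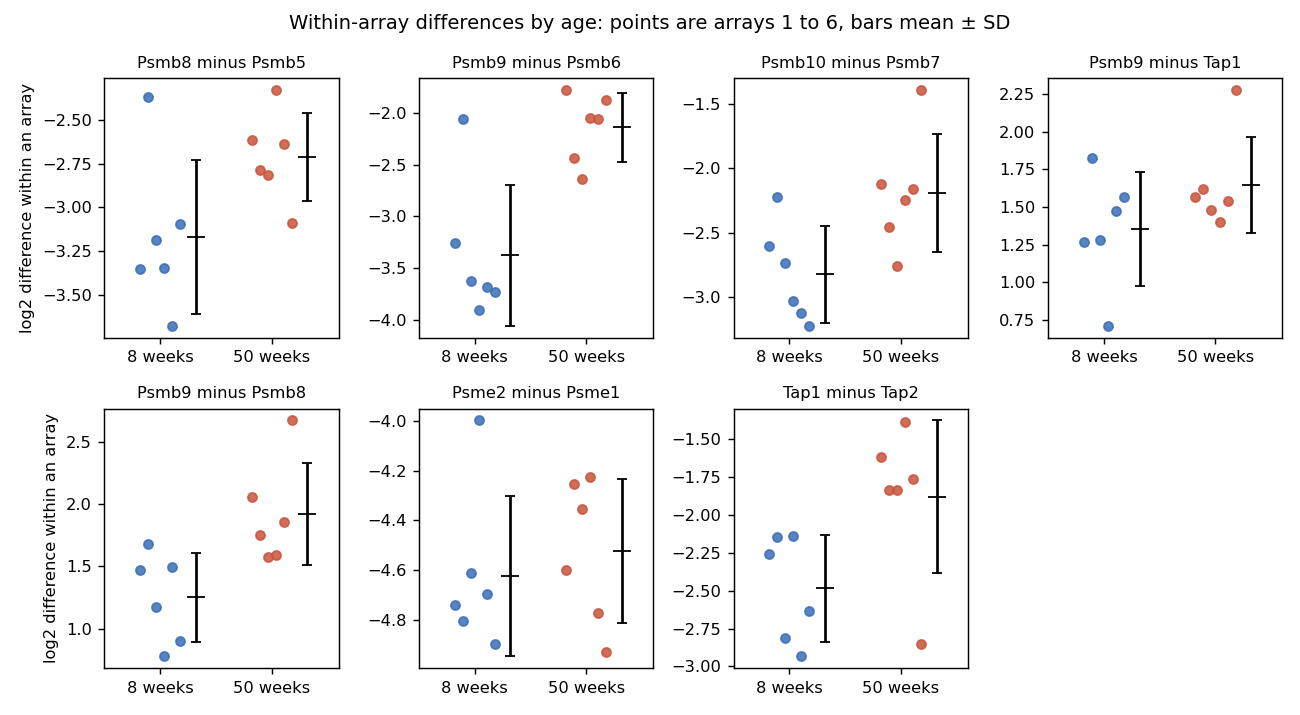
Difference of 2 log2 intensities within each array (y axis) at 8 and 50 weeks for the 7 gene pairs tested; points are arrays 1 to 6 from left to right, bars the mean ± SD of 6 arrays, and each panel has its own axis. Psmb9 minus Psmb6 moves from -3.38 to -2.14 and Psmb9 minus Psmb8 from 1.25 to 1.92, while Psme2 minus Psme1 stays at -4.62 and -4.52.

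Among members, the log2 intensity of Psmb9 rose more than that of Psmb8, its neighbour in the MHC region and partner in the immunoproteasome. Psmb8 was dim, at 5.40 at 8 weeks where Psmb9 was at 6.65, and was detected on 5 of 6 young arrays. Background may shrink the difference of a dim probe, so this pair does not settle whether the transcripts themselves changed unequally. Psmb9 minus Psmb8 went from 1.25 ± 0.36 to 1.92 ± 0.41 (SD, n = 6), by 0.67 ± 0.22 (exact permutation p = 0.00866, adjusted p = 0.0303). That call ended without any 1 of 8 weeks arrays 3, 4 and 6 or 50 weeks arrays 1, 2, 5 and 6 (adjusted exact permutation p up to 0.0682). Psmb9 minus Tap1, the genes whose promoter windows overlap, differed by 0.29 ± 0.20 (exact permutation p = 0.206, adjusted p = 0.24). On the authors' values that difference was 0.47 and passed (adjusted exact permutation p = 0.0303). Those values keep the background of dim probes, and gave 0.87 for Psmb9 and 0.41 for the dimmer Tap1, beside 1.44 and 1.15 in the main setting. What the pass owes to background was not tested. Tap1 minus Tap2, the chains of one transporter, differed by 0.60 ± 0.25 (exact permutation p = 0.039, adjusted p = 0.0682). It passed without 50 weeks array 6 (0.80, adjusted exact permutation p = 0.0152), and was -0.017 on the authors' values. Psme2 minus Psme1 differed by 0.10 ± 0.18 (exact permutation p = 0.569, adjusted p = 0.569).

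Across arrays of one age, the members did not all vary together. After the mean of each age was removed, Pearson's r over 12 arrays was 0.89 for Psmb10 with Tap2, 0.86 for Psmb9 with Psme1, 0.85 for Psmb9 with Psmb10, 0.82 for Psmb8 with Tap1 and 0.73 for Psmb9 with Tap1. It was 0.08 for Psmb8 with Tap2, 0.31 for Tap1 with Tap2 and -0.44 for Psme2 with Tap2. These values describe arrays that share scaling, and several moved with the arrays that stood apart. Without 8 weeks array 2, r over 11 arrays was 0.86 for Psmb10 with Tap2 and 0.79 for Psmb9 with Psmb10, but 0.60 for Psmb9 with Psme1, 0.65 for Psmb8 with Tap1 and 0.40 for Psmb9 with Tap1. Without 50 weeks array 6 it was 0.53 for Psmb8 with Tap2, 0.73 for Tap1 with Tap2 and -0.17 for Psme2 with Tap2. On 8 weeks array 2 most members were high together, with a mean over the 8 members of 7.17 against 6.34 to 6.60 on the other young arrays. On 50 weeks array 6 the brightest probes parted, since those of Psmb10, Tap2 and Psmb9 were at or near their highest values. Those of Psmb8, Tap1, Tapbp and Psme2 were at the lowest of their age. The pair of Psmb8 probes disagreed there, with ILMN_2693940 at 5.72 and ILMN_1226683 at 6.30, the highest of its age. The parting of Psmb8 and its r values therefore rest on ILMN_2693940 alone.

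**Figure D4:**
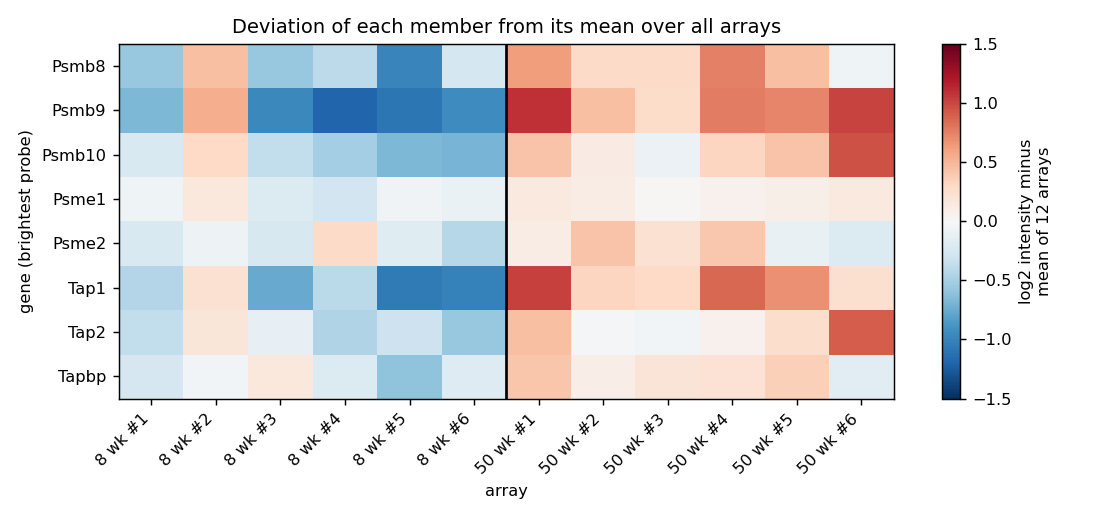
Deviation of each measured member (rows, brightest probe) from its mean over 12 arrays, in log2 units, on each array (columns; # gives the array within its age, and the black line separates 8 from 50 weeks). Array 2 of 8 weeks is red for most members, unlike the other young arrays. Array 6 of 50 weeks is dark red for Psmb9, Psmb10 and Tap2 but pale for Psmb8 and Tapbp. The Psmb8 probe not shown, ILMN_1226683, was at its highest on that array.

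The genes whose pattern within each age was most like the mean standardised pattern of the 8 members, over 12 arrays, were B2m (r = 0.96), Unc93b1 (0.94), Gbp3 (0.94), H2-Ab1 (0.93), Nlrc5 (0.92) and H2-K1 (0.92). Without 8 weeks array 2 these values were 0.89 for B2m, 0.76 for Unc93b1, 0.72 for Gbp3, 0.73 for H2-Ab1, 0.80 for Nlrc5 and 0.75 for H2-K1. B2m encodes the light chain of class I molecules, and on its brightest probe it rose by 0.87 ± 0.21 (limma adjusted p = 0.0213), and by 1.10 ± 0.10 without 8 weeks array 2 (limma adjusted p = 3.72e-05). The others encode a chaperone of endosomal Toll-like receptors, an interferon-induced GTPase, a class II chain, a class I transactivator and a class I heavy chain. They rose by 0.74, 1.10, 1.42, 1.42 and 0.65 (limma adjusted p = 0.00505, 0.00478, 0.00486, 0.00143 and 0.0322).

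Other genes of the pathway are given beside the 5.52% of 9379 genes called higher and the 5.1% called lower when the brightest probe stood for each gene. Of 8 further core proteasome subunits measured, 0 were called (limma) in either direction, and their median difference was 0.05. The 3 with the smallest adjusted p were Psma4 at -0.17, Psmb4 at 0.12 and Psmb3 at 0.12, with limma adjusted p of 0.323, 0.35 and 0.405. Of 6 other activators and assembly factors 1 was higher, the assembly chaperone Psmg3 (0.35 ± 0.09, limma adjusted p = 0.0297), while Psmg2 was at -0.17 and Pomp, the maturation factor of new cores, at 0.14 (limma adjusted p = 0.234 and 0.319). Psmg3 did not pass without 8 weeks array 2 (limma adjusted p = 0.0507). Of 7 other peptide trimming and loading factors measured, B2m was the 1 called. Without 50 weeks array 6, 3 were higher, beside 10.6% of all genes called higher. The peptidases Thop1, at 0.29, and Tpp2, at -0.14, did not pass (limma adjusted p = 0.128 and 0.412).

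Class I heavy chains, which receive the loaded peptide, were higher for 7 of 11 measured genes and lower for 0. Their median difference was 0.75. Without 8 weeks array 2, 8 of 11 were higher, with a median of 0.92, beside 6.39% of all genes called higher. H2-M3 differed by 0.96 ± 0.19 and H2-Q6 by 1.30 ± 0.30 (limma adjusted p = 0.00569 and 0.0162). H2-M2, above background on a single 8-week array of 6 but on all 50-week arrays, was called by the fit (limma adjusted p = 0.000858). With values under the lowest detected probe of their array raised to it, it was 1.73-fold higher. Heavy chain genes are near copies of one another, so the gene behind a probe is uncertain. In the class II loading pathway, which fills the other kind of MHC molecule, 4 of 7 measured genes were higher and 1 lower. Without 8 weeks array 2 these counts were 5 and 1, beside 6.39% of all genes called higher and 5.57% lower. H2-DMa and H2-DMb1, which edit the bound peptide, rose by 1.11 ± 0.22 and 1.06 ± 0.22, and Cd74, the invariant chain, by 1.25 ± 0.26 (limma adjusted p = 0.00702, 0.00885 and 0.00901). The gene that fell was Ifi30, a lysosomal thiol reductase, by 0.47 on the log2 scale (limma adjusted p = 0.0178), chosen after its values were seen.

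Of 13 measured regulators of interferon and class I transcription, 4 were higher and 0 lower, with a median difference of 0.11. There were 5 higher without 8 weeks array 2, beside 6.39% of all genes called higher. Without 50 weeks array 6 there were 6, beside 10.6% of all genes. Nlrc5, the transactivator of class I genes, Psmb9, Tap1 and B2m, rose from 5.24 ± 0.56 to 6.66 ± 0.26 (SD, n = 6), by 1.42 ± 0.22 (limma adjusted p = 0.00143), with detection on 3 of 6 arrays at 8 weeks and all 6 at 50 weeks, and 2.50-fold with low values raised as for H2-M2. Its values ran from 4.70 to 6.26 at 8 weeks and from 6.28 to 6.98 at 50 weeks, so the ages did not overlap. Irf8, a factor of myeloid and B cells, rose by 0.75 ± 0.09, Stat2 by 0.66 ± 0.10 and Irf1, which acts on the inducible subunits, by 0.73 ± 0.16 (limma adjusted p = 0.000247, 0.00109 and 0.0123). Ifng itself was detected on 0 of 12 arrays, and its receptor chains Ifngr1 and Ifngr2, named after their values were seen, were at 0.06 and 0.11 (limma adjusted p = 0.843 and 0.81).

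Several markers of leukocytes were higher at 50 weeks, as were the members. Of 8 pan-leukocyte genes 3 were called higher, of 10 macrophage and dendritic cell genes measured 6, of 7 T and NK cell genes 3 and of 4 B and plasma cell genes 3, with 0 lower in each list. Without 8 weeks array 2 and 50 weeks array 6 the counts higher were 8, 9, 7 and 3 of these, with 1 macrophage gene lower, beside 11.6% of all genes higher. The B and plasma genes Mzb1, Pou2af1, Fcrla and Cd79b were detected on 2, 1, 2 and 2 of 6 young arrays and on all 6 old ones. Cd3g, Cd3d and Cd2 of the T and NK list were detected on 2 of 6 young arrays each, and pan-leukocyte Ptprc on 1. Genes this dim at 8 weeks passed the detection filter through the old arrays, so the filter itself favoured calls of higher. The mean log2 intensity of the macrophage list ran from 7.18 to 8.05 at 8 weeks and from 7.75 to 8.34 at 50 weeks, that of the T and NK list from 5.51 to 6.68 and from 6.52 to 7.22, that of the B and plasma list from 4.46 to 5.60 and from 5.39 to 7.24, and the pan-leukocyte list from 6.62 to 7.95 and from 7.55 to 8.30. Of defining markers, Cd8a, Cd247, Gzmb and Ncr1 of T and NK cells and Pax5, Cr2 and Tnfrsf17 of B and plasma cells were never detected. Cd8b1, counted in the T and NK list, was at 10.83 at 8 weeks and 11.03 at 50 weeks. The next highest gene of that list, Nkg7, was at 5.59 and 6.93. Whether the Cd8b1 probe reads T cells was not tested. The high young array for the members, 8 weeks array 2, was also the highest young array for the macrophage, T and NK and pan-leukocyte lists, at 8.05, 6.68 and 7.95. The T and NK and pan-leukocyte lists were nearly as high on 8 weeks array 1, at 6.59 and 7.79. That array was also the highest young array for the B and plasma list, at 5.60. Its mean over the members was 6.60, against 7.17 on 8 weeks array 2. The lymph node stroma genes Ccl21a and Ccl19 had a mean of 7.03 on 8 weeks array 1, 6.79 on 8 weeks array 2 and 7.04 on 50 weeks array 2. On the other arrays that mean was 6.02 to 6.30, and neither gene was called between ages. Whether adjoining lymph node was in any sample was not tested. Within ages, r with the pattern of the members over 12 arrays was 0.855 for macrophages, 0.73 for T and NK cells, 0.66 for pan-leukocyte genes and 0.23 for B and plasma cells. With 8 weeks array 2 left out it was 0.61, 0.59, 0.36 and 0.03. Fibroblast genes went the other way, with 4 of 7 called lower and 1 higher, and of 5 myoepithelial and smooth muscle genes 4 were higher. The part of any of these cells in the members' rise was not tested.

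**Figure D5:**
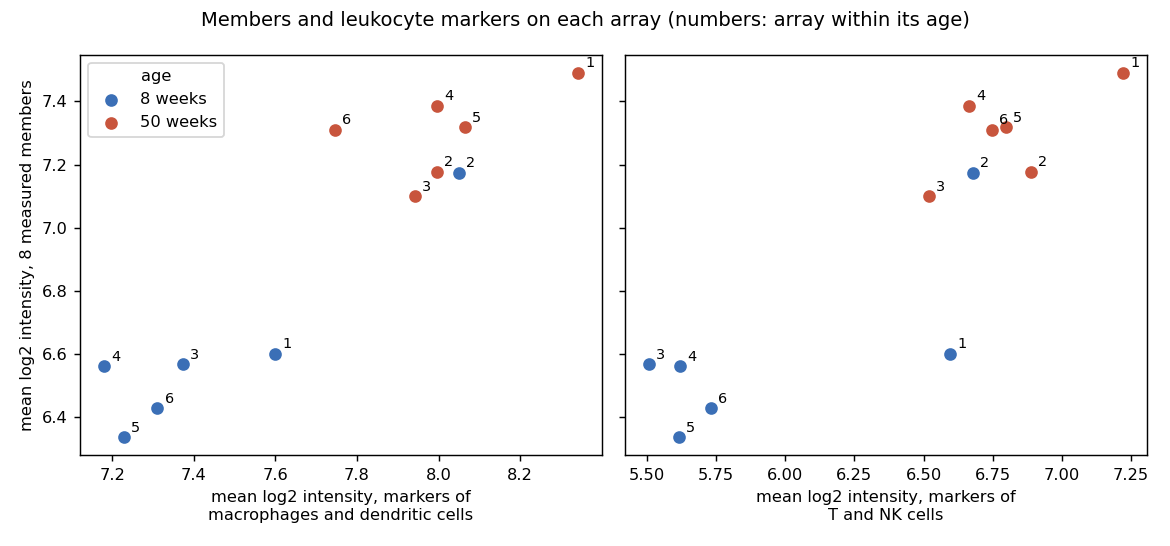
Mean log2 intensity of the 8 measured members (y axis) against that of 10 macrophage and dendritic cell markers (left) and 7 T and NK cell markers (right); each point is an array, with its number within its age beside it, blue for 8 weeks and red for 50 weeks. Array 2 of 8 weeks, at 7.17, lies among the 50-week arrays, which run from 7.10 to 7.49, and the other 8-week arrays lie at or under 6.60.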

How the data were processed

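Gland RNA of 6 arrays per age was measured on Illumina bead arrays, per the labels as biotinylated cRNA. The deposited table gives a linear intensity per probe and array with no stated scaling and, per the file headers, a detection p-value beside each. The authors' second deposited table holds the same intensity values times 1 factor per array (0.803 to 1.26), giving each array a mean of 260.6; values were linear and not centred, with medians from 93.6 to 121. The sources used here name no scanner or software.

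Background correction and quantile normalisation to log2 values used neqc (offset 16) from limma 3.58.1 under R 4.3.3 on the deposited intensities. Array weights used statmod 1.5.0. Of 45281 probes, 34885 had 1 symbol, 18 several and 10378 none; 34807 matched the RefSeq gene table of GRCm38.p6. lmFit and eBayes were run on the 16254 probes kept, 2-sided, with Benjamini-Hochberg adjustment over all of them. Gene pairs used exact permutation tests, and pathway lists the brightest kept probe per gene (9379 genes). Named genes were all members, 6 fixed genes, the 3 smallest adjusted p of each pathway list and the 6 most like patterns. Members and lists were chosen with earlier results of these data known. The number of arrays and the signal over background limit the precision. Alternatives covered background, scaling, filter, probe choice, weights, block and arrays left out; list counts, named genes and correlations without the arrays that stood apart were added after seeing the data.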

Additional observations from a re-analysis of the deposited data

Results flagged for a closer look

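A gap to the nearest array of the same age beyond Dixon's 95% critical value was found 7 times in 50 groups of 6 arrays, where chance flags about 1 in 20, or 2.5. On 8 weeks array 2, the value of Psmb9 was 7.92, the next young array being at 6.69, that of B2m 13.19, next to 12.03, and Psmb9 minus Psmb6 was -2.05 against -3.25. On 50 weeks array 6, Psmb9 minus Tap1 was the highest of its age at 2.28, against 1.62, and Tap1 minus Tap2 the lowest at -2.85, against -1.84. Psmb5 was 9.02 on 50 weeks array 1, against 8.89 on the next array, and Psme2 minus Psme1 was -4.00 on 8 weeks array 4, against -4.61.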

How the results depend on the processing

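The number of member probes called ran from 4 to 9, of 8 to 15 tested, over 23 alternatives, with 0 lower in each. It was 4 to 8 when single arrays were left out. The count was 9 with array weights and without both arrays that stood apart, where 26% and 25.6% of all probes were called. It was 4 only in settings that called 3.03% to 7.23% of all probes, and 6 with median scaling, which called 3.13%. Psmb9 and Tap1 kept their calls in all alternatives that tested them, 23 and 22, with differences of 0.87 to 1.70 and 0.41 to 1.37. Scaling each array to the same median moved the median of all probes to 0.10 from -0.02. It gave 508 called probes against 1567, 83.5% of them higher against 51.3%, with all 12 member probes above that median. Array weights gave 4226 calls, leaving out single arrays 1037 to 3755 (lowest without 50 weeks array 1, highest without 50 weeks array 6), and leaving out 8 weeks array 2 and 50 weeks array 6 together 4160.

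Tapbp probe ILMN_3155492 changed sign with median scaling (0.12), on the authors' values (0.0107 with pseudocount 16 and 0.0117 with 1), with array weights (0.11), without single arrays (-0.20 to 0.0938) and without both arrays that stood apart (0.0310). Of the pairs, on the authors' values with pseudocount 16, Psmb8 minus Psmb5 was -0.0076, Tap1 minus Tap2 -0.0173, Psme2 minus Psme1 -0.13 and Psmb9 minus Tap1 0.47; with pseudocount 1 the last 2 were -0.12 and 0.48. Psmb9 minus Psmb8 missed the threshold with median scaling (0.70). Psmb10 minus Psmb7 passed with probes detected on all arrays (0.63, where fewer pairs were tested) and with the mean of probes (0.68). Without both arrays that stood apart, Psmb8 minus Psmb5 (0.69), Psmb10 minus Psmb7 (0.59) and Tap1 minus Tap2 (0.87) passed. Without single arrays the differences ran from 0.36 to 0.62 for Psmb8 minus Psmb5, 1.13 to 1.504 for Psmb9 minus Psmb6, 0.48 to 0.75 for Psmb10 minus Psmb7, 0.51 to 0.75 for Psmb9 minus Psmb8 and 0.50 to 0.80 for Tap1 minus Tap2. Except for the pairs dropped by a filter, the causes were not tested.

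The sample titles number mice within each age and state no pairing across ages. Same-numbered arrays correlated at 0.02 to 0.29 after the age means were removed, over 0.1 for 4 of 6 numbers. Of the 6 young arrays, 1 correlated best with its own number. Slide position and batch are not in the labels, so whether arrays of a number or of an age shared them could not be tested. With the replicate block, 4 member probes and 1175 of all probes were called. Psmb9 minus Psmb6 (1.24) and Psmb9 minus Psmb8 (0.67) had an adjusted exact permutation p of 0.146 in a paired test over 64 sign arrangements. The smallest p that test can give is 0.03125, and at least 5 of the 7 pairs would have to reach it for any to pass, so it says nothing of their stability.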
